A study of Homo sapiens with 9 samples.

Results

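Genes of glycolysis and of the hypoxia response were examined in the RNA-seq counts of HCT116 cells in which the catalytic cysteine of the ubiquitin ligase HUWE1 had been mutated. The set was a fixed list of 39 gene symbols with roles in glucose uptake, glycolysis, lactate release, pyruvate entry into mitochondria and the response to HIF1, and 36 of them were present among the 11350 genes of the counts table. SLC2A3, CA9 and ANKRD37 have no row there and were not analysed here.

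HCT116 is a human colorectal carcinoma line, and 3 lines derived from it were compared with 3 libraries each. HUWE1-P are the parental cells. In both edited lines a repair template replaced the stretch of the endogenous gene that codes for the catalytic cysteine. At this residue the template coded for cysteine in HUWE1-WT and for serine in HUWE1-CS cells. All 9 cultures were untreated and grown in the same high-glucose medium, and no low-oxygen step is described for them. Both edited lines also carry the repair template's P2A peptide and blasticidin resistance gene and were raised from single cells after puromycin and blasticidin selection, whereas HUWE1-P cells were not, so HUWE1-WT is the closer control. Whether the 3 replicates of an edited line are 1 clone or several is not given in the sources used here, so clone and mutation cannot be told apart, and p-values measure only the spread between these samples.

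Glycolysis splits glucose into pyruvate and yields ATP without oxygen. Hexokinase traps glucose in the cell, phosphofructokinase makes the committed step, and lactate dehydrogenase recycles NADH by reducing pyruvate to lactate, which monocarboxylate transporters export. HIF1, a dimer of the oxygen-sensitive subunit HIF1A and its partner ARNT, is the transcription factor that raises many of these genes in hypoxia, and colorectal tumour cells commonly run glycolysis at a high rate also with oxygen present.

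The libraries held 1610984 to 2060349 counts each. The floor of 3 counts was worth 1.45 to 1.86 CPM, the TMM-normalized count scaled to library size that serves as the level of a gene throughout. The edited gene itself, HUWE1 (Entrez 10075, chrX:53559057-53713697 on GRCh37), had 561, 545 and 522 CPM in HUWE1-P, 498, 453 and 455 CPM in HUWE1-WT and 345, 323 and 339 CPM in HUWE1-CS cells. Its mRNA was therefore lower in every HUWE1-CS library than in any control library, while the exchange of cysteine for serine cannot be read from counts per gene. Of 9 markers of colon epithelium 6 were in the table (EPCAM, CDH1, KRT8, KRT18, KRT19 and CDX2), of which EPCAM and CDH1 were higher (0.28 and 0.53 on the log2 scale against HUWE1-P cells) and KRT8 and KRT18 lower (-0.32 and -0.30) in both HUWE1-CS comparisons. In the table were also 1 of 6 markers of fibroblasts (COL1A1), 1 of 5 of leukocytes (CD68) and 0 of 4 of endothelium. The defining leukocyte and endothelial markers PTPRC and PECAM1 had no row, and COL1A1 was at 18.0 to 25.6 CPM in the controls and 8.71 to 14.8 CPM in HUWE1-CS cells. The part of these marker changes in the results was not tested. The HUWE1-CS libraries showed a trend with transcript length, which was largest in replicate 2. In that library genes with transcripts of 1258 bases lay 0.14 above and genes of 7598 bases 0.13 below their mean over the 9 libraries on the log2 scale. At 1258 bases the other HUWE1-CS libraries were at 0.042 and 0.059, also above the controls, which spanned -0.066 to 0.031. At 7598 bases they were at -0.025 and -0.015, where the controls spanned -0.016 to 0.084.

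In HUWE1-CS cells 17 of the 36 genes differed from HUWE1-P cells at a false discovery rate (FDR) of at most 0.01 in edgeR's quasi-likelihood test, 9 of them higher and 8 lower. Over all 11350 genes, 17.0% passed this test, 8.46% higher and 8.58% lower. Against HUWE1-WT cells 14 of the 36 passed, 6 higher and 8 lower, where 15.5% of all genes passed, 7.42% higher and 8.08% lower. These 14 genes all belonged to the 17. The list thus held a larger share of genes that passed, but its genes are also more abundant, with a median level of 94.2 CPM against 40.8 CPM over all genes, and abundant genes are measured with less error. Among genes with a mean level of at least 100 CPM, 32.9% passed against the parental cells and 29.4% against HUWE1-WT cells, beside 11 and 10 of the 17 listed genes at that level. The median size of the log2 difference against HUWE1-P cells, regardless of sign, was 0.22 for the 36 genes and 0.22 for all genes, and at 100 CPM or more it was 0.26 for the listed genes and 0.17 for all genes. The listed genes did not share a direction: the median log2 fold change was 0.03 against HUWE1-P and -0.06 against HUWE1-WT cells, and those over all genes were -0.01 and -0.00059. In bulk samples fewer cells that express a gene and less of its RNA per cell cannot be told apart.

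None of the 36 genes passed between the control lines HUWE1-WT and HUWE1-P in edgeR, DESeq2 or limma-voom, and 4 had an unadjusted p below 0.05 in edgeR; 0.0617% of all genes passed there. For 20 of the 36 genes every HUWE1-CS library was outside the range of the 6 controls, 10 above and 10 below, compared with 26.3% of all genes. Without HUWE1-P replicate 1 the count in HUWE1-CS against HUWE1-P cells fell to 11, with ENO2, GPI, NDRG1, P4HA2, PFKM and PGK1 no longer past the threshold. SLC2A1, HK2, PFKL, PFKP, LDHA and HIF1A passed in both comparisons in each of 20 alternative fits.

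**Figure D1:**
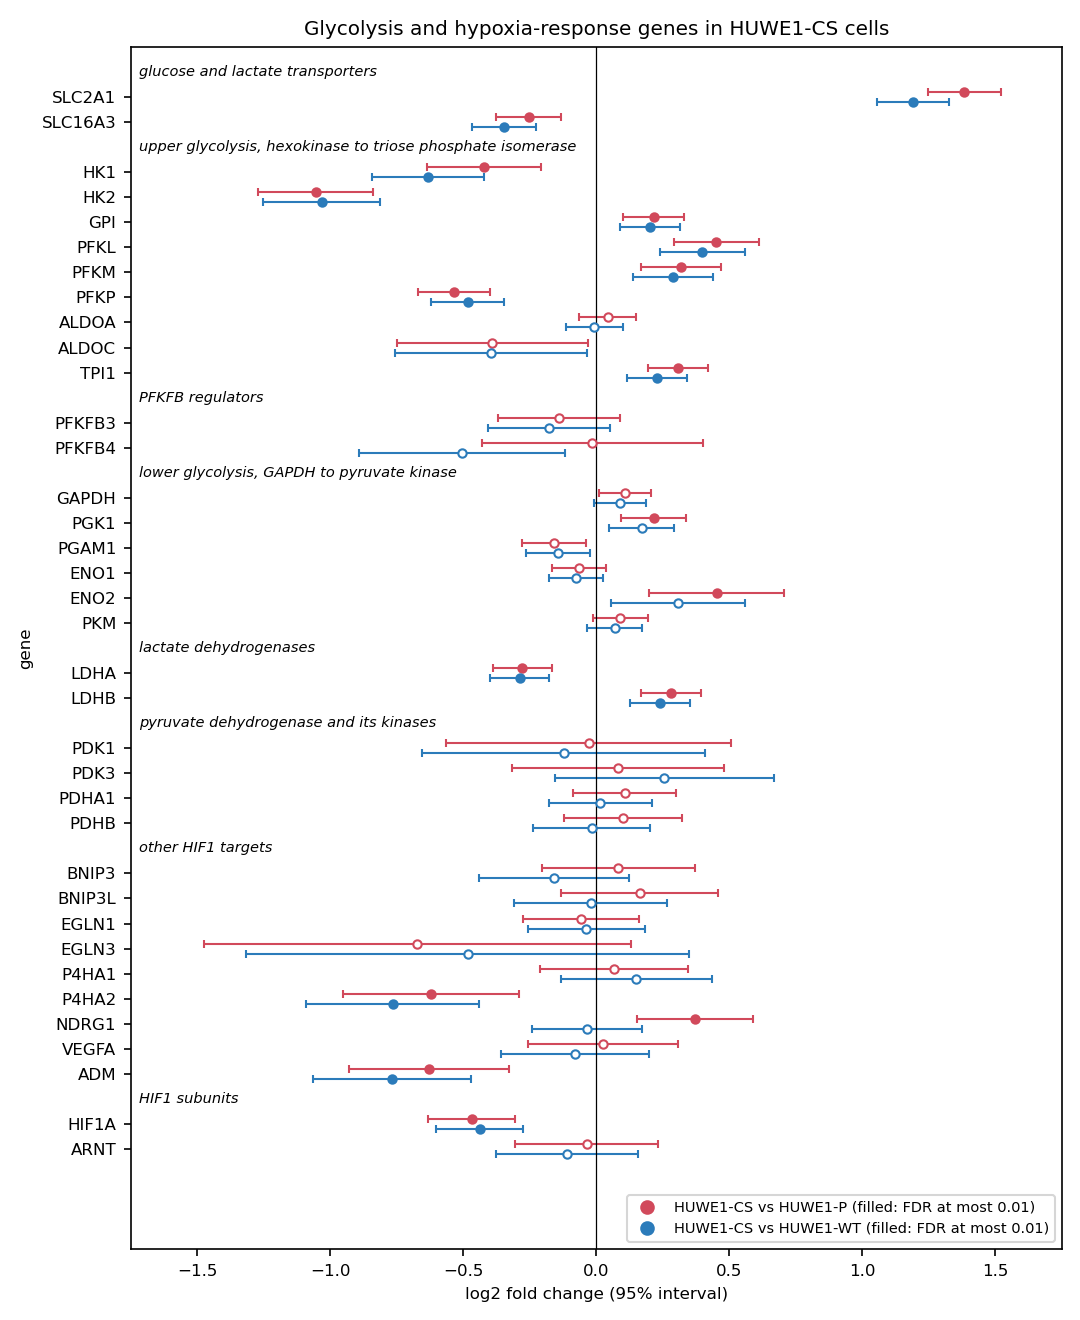
Log2 fold change with its 95% interval for the 36 genes, ordered by role, in HUWE1-CS against HUWE1-P cells (red) and against HUWE1-WT cells (blue); filled points passed FDR 0.01. SLC2A1 stands at 1.38 and 1.19 and HK2 at -1.06 and -1.03, and the phosphofructokinases and lactate dehydrogenases fall on both sides of 0.

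The largest change of the list was in the glucose transporter that feeds the pathway. SLC2A1 (GLUT1, Entrez 6513, chr1:43391024-43424564, minus strand) was at 167, 177 and 191 CPM in HUWE1-P, 208, 205 and 200 CPM in HUWE1-WT and 469, 460 and 471 CPM in HUWE1-CS cells. The HUWE1-CS libraries were far above all 6 controls and close to each other, and the HUWE1-WT libraries lay slightly above the HUWE1-P libraries. The log2 fold change was 1.38 (SE 0.0693, 2.61-fold, FDR 1.33e-32, edgeR quasi-likelihood test) against HUWE1-P and 1.19 (SE 0.0683, 2.28-fold, FDR 1.49e-28) against HUWE1-WT cells. The 20 nearest tested genes on the chromosome had a median log2 fold change of -0.07 against HUWE1-P cells. SLC16A3 (MCT4), the main exporter of lactate from glycolytic cells, moved the other way. It was at 664, 661 and 615 CPM in HUWE1-P, 718, 659 and 688 CPM in HUWE1-WT and 555, 556 and 512 CPM in HUWE1-CS cells, so that the groups did not overlap. Its log2 fold changes were -0.26 (SE 0.0612, FDR 0.000676) and -0.35 (SE 0.0611, FDR 3.63e-06), and the first was lost without HUWE1-CS replicate 3 (-0.21, adjusted p 0.0188).

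Hexokinase, which phosphorylates the glucose that enters, fell in both expressed isozymes. HK2 (Entrez 3099, chr2:75061254-75120486, plus strand), the isozyme induced in many tumours, was at 118, 112 and 128 CPM in HUWE1-P, 119, 125 and 109 CPM in HUWE1-WT and 49.9, 58.4 and 63.9 CPM in HUWE1-CS cells. Every HUWE1-CS library was below every control library, and the log2 fold changes were -1.06 (SE 0.109, FDR 1.07e-13) against HUWE1-P and -1.03 (SE 0.110, FDR 4.35e-13) against HUWE1-WT cells. SLC2A1 and HK2, the transporter and the enzyme of consecutive steps, thus went in opposite directions by more than any other genes of the list that passed. The ratio of their counts rose from 1.50 ± 0.0862 in HUWE1-P and 1.74 ± 0.0990 in HUWE1-WT to 8.22 ± 1.06 in HUWE1-CS cells (SD, n = 3, no test). HK1, the widely expressed housekeeping isozyme, was at 90.6, 99.3 and 90.1 CPM in HUWE1-P, 105, 106 and 113 CPM in HUWE1-WT and 71.8, 66.4 and 70.8 CPM in HUWE1-CS cells. Here too the groups were separate, with log2 fold changes of -0.42 (SE 0.108, FDR 0.00154) and -0.63 (SE 0.106, FDR 1.12e-06). The call of HK1 against HUWE1-P cells was lost with DESeq2 and without replicate 2 of either HUWE1-P or HUWE1-CS (-0.38 in both), with adjusted p between 0.000626 and 0.0182 over the alternative fits. Per kilobase of transcript, HK2 made up 45.0% of both hexokinases in HUWE1-P, 41.0% in HUWE1-WT and 34.5% in HUWE1-CS cells.

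The upstream DNA of SLC2A1 and HK2 is shown because they are the extremes of the list and are both known to answer to HIF1. Each run is the 250 bases before a RefSeq start site (GRCh38.p14), 5′ to 3′ on the gene's strand, with the HIF-binding core letters ACGTG and GCGTG in capitals wherever they occur on either strand (read as CACGT and CACGC where they lie on the other strand). The SLC2A1 window is chr1:42958869-42959118 (minus strand), and the HK2 window chr2:74833877-74834126 (plus strand).
SLC2A1: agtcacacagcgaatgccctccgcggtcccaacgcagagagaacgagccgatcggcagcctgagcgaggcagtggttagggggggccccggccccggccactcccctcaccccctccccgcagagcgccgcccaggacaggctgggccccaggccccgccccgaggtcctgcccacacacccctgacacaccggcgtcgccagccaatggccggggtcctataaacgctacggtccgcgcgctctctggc
HK2: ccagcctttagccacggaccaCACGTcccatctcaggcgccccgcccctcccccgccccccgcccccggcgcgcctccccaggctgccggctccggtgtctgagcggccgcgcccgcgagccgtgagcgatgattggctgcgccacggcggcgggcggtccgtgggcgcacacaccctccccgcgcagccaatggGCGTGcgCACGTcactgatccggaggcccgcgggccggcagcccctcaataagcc
The window of SLC2A1 held 0 and that of HK2 held 3 such cores. Only the 250 bases before a start site were searched, so cores elsewhere, as in distant enhancers, would not be seen. HK2 has another RefSeq start site with 4 cores upstream. A match of 5 letters is a description of the sequence and not a bound site.

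The middle steps changed by isozyme. GPI, which turns glucose 6-phosphate into fructose 6-phosphate, rose slightly, from 780, 828 and 780 CPM in HUWE1-P and 804, 838 and 768 CPM in HUWE1-WT to 905, 941 and 925 CPM in HUWE1-CS cells. The log2 fold changes of GPI were 0.22 (FDR 0.00247) and 0.20 (FDR 0.00533), and the second was lost in 6 of the 20 alternative fits.

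Of the phosphofructokinase subunits, which assemble into mixed tetramers, the platelet type fell while the liver and muscle types rose. PFKP (Entrez 5214, chr10:3108525-3179910) was at 388, 374 and 358 CPM in HUWE1-P, 351, 365 and 364 CPM in HUWE1-WT and 273, 239 and 261 CPM in HUWE1-CS cells, with log2 fold changes of -0.53 (SE 0.0687, FDR 5.25e-10) and -0.48 (SE 0.0692, FDR 1.71e-08). PFKL (Entrez 5211, chr21:45719934-45747259) was at 146, 175 and 154 CPM in HUWE1-P, 174, 148 and 170 CPM in HUWE1-WT and 209, 216 and 223 CPM in HUWE1-CS cells, with log2 fold changes of 0.45 (SE 0.0801, FDR 3.89e-06) and 0.40 (SE 0.0801, FDR 5.05e-05). PFKM (Entrez 5213, chr12:48498922-48540187) was at 176, 193 and 191 CPM, then 191, 201 and 180 CPM, then 230, 241 and 228 CPM in the same order, with log2 fold changes of 0.32 (FDR 0.000626) and 0.29 (FDR 0.00213). For each of these subunits the HUWE1-CS libraries did not overlap the controls.

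Set against transcript length, PFKP mRNA held most of the family in both control lines. In HUWE1-CS cells PFKP no longer held most of it but remained the largest of the subunits. Its share was 55.3% ± 2.24 in HUWE1-P, 53.7% ± 1.21 in HUWE1-WT and 39.5% ± 2.05 in HUWE1-CS cells (SD, n = 3). PFKL rose from 21.2% and 22.2% to 30.0%, and PFKM from 23.5% and 24.2% to 30.4%. These shares are of CPM per kilobase and were not tested as such. The genes lie on chromosomes 10, 21 and 12, and the medians of the 20 nearest tested genes were -0.03, -0.01 and -0.15 in HUWE1-CS against HUWE1-P cells, so PFKM rose in a neighbourhood whose median was below 0.

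**Figure D2:**
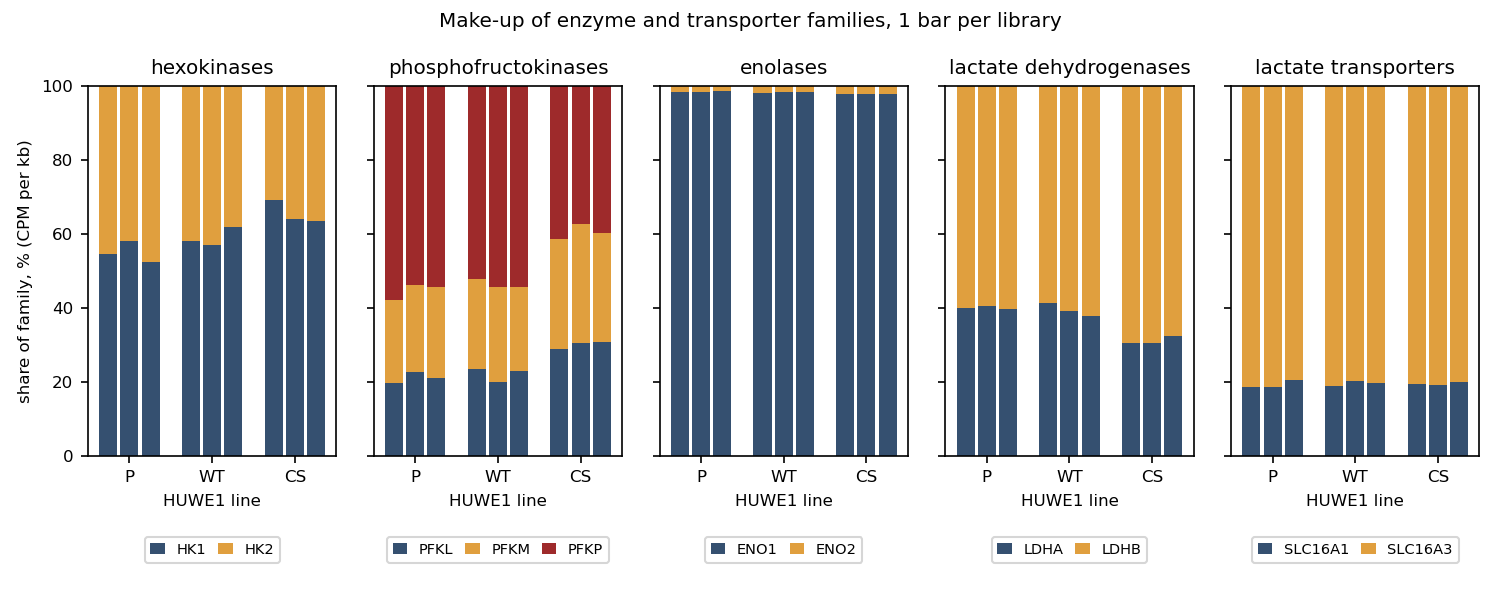
Share of each family member in the summed CPM per kilobase of its family, in percent, with 1 bar for each of the 9 libraries. PFKP falls from 55.3% and 53.7% to 39.5% and LDHA from 40.0% and 39.5% to 31.1% in HUWE1-CS cells, while the lactate transporters SLC16A1 and SLC16A3 keep their proportions.

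Aldolase splits the 6-carbon sugar, and neither of its isozymes passed. ALDOA, which made up 98.0% of aldolase mRNA per kilobase in HUWE1-P cells, had log2 fold changes of 0.04 (95% interval -0.07 to 0.15) against HUWE1-P and -0.01 (-0.12 to 0.10) against HUWE1-WT cells. ALDOC, the brain type and a HIF1 target, lay lower in all HUWE1-CS libraries (19.0, 27.2 and 22.6 CPM) than in the controls, which spanned 29.2 to 32.3 CPM, but its FDR was 0.101 and 0.102. TPI1, which interconverts the triose phosphates, was at 894, 883 and 855 CPM in HUWE1-P, 878, 974 and 925 CPM in HUWE1-WT and 1062, 1091 and 1101 CPM in HUWE1-CS cells. It rose by a log2 fold change of 0.31 (SE 0.0567, FDR 9.1e-06) and 0.23 (SE 0.0566, FDR 0.00112). The 20 nearest tested genes of TPI1, on chromosome 12, had medians of 0.21 and 0.29 in the same comparisons, and their part in its rise was not tested. The bifunctional regulators PFKFB3 and PFKFB4, which set the level of the phosphofructokinase activator fructose 2,6-bisphosphate, did not pass. PFKFB4 had a log2 fold change of -0.51 with FDR 0.0469 against HUWE1-WT cells and of -0.02 with FDR 0.970 against HUWE1-P cells.

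From GAPDH to pyruvate kinase, the steps that return ATP, the changes were small. PGK1, which makes the first ATP of the pathway, was at 527, 556 and 491 CPM in HUWE1-P, 539, 529 and 554 CPM in HUWE1-WT and 608, 598 and 620 CPM in HUWE1-CS cells. It passed against HUWE1-P cells (log2 fold change 0.22, FDR 0.00476) and not against HUWE1-WT cells (0.17, FDR 0.0311), and the difference between these comparisons was not tested. ENO2, the neuronal enolase, was at 49.0, 51.6 and 42.9 CPM in HUWE1-P, 55.0, 49.1 and 54.1 CPM in HUWE1-WT and 62.9, 66.4 and 66.2 CPM in HUWE1-CS cells. The HUWE1-CS libraries were the highest for both genes, and ENO2 passed likewise against HUWE1-P cells (0.45, FDR 0.00447) and not against HUWE1-WT cells (0.31, FDR 0.0642). Against HUWE1-P cells PGK1 passed in 16 and ENO2 in 15 of the 20 alternative fits. The 20 nearest tested genes of ENO2, on chromosome 12 as is TPI1, had medians of 0.16 and 0.19 in these comparisons. Their part in the rise of ENO2 was not tested. ENO1 remained the main enolase by far, with ENO2 at 1.54% of enolase mRNA per kilobase in HUWE1-P, 1.68% in HUWE1-WT and 2.18% in HUWE1-CS cells.

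The 4 genes with the highest level per kilobase in both control lines, GAPDH, ENO1, ALDOA and PKM, did not pass. GAPDH, which oxidises glyceraldehyde 3-phosphate and is often used as a reference gene, had 3026 CPM per kilobase in HUWE1-P, 3062 in HUWE1-WT and 3258 in HUWE1-CS cells, the highest level of the list, and a log2 fold change of 0.11 (95% interval 0.01 to 0.20, FDR 0.0995) against HUWE1-P cells, which went to -0.01 with the trend by transcript length removed and passed in limma-voom. The 20 nearest tested genes of GAPDH, also on chromosome 12, had a median of 0.12 in this comparison, and their part was not tested. In the same comparison the log2 fold change was -0.07 (FDR 0.360) for ENO1 and 0.09 for pyruvate kinase PKM. Phosphoglycerate mutase PGAM1, at a lower level, had -0.16 (FDR 0.0407). Counts of these genes carry a further uncertainty, since the genome holds processed copies of them that can take or give reads: the annotation names 64 such pseudogenes of GAPDH, 13 of PGAM1, 6 of LDHA, 5 of PKM, 4 each of ENO1 and TPI1, 3 of LDHB, 2 each of ALDOA and PGK1 and 1 of HK2. Of the other listed genes, BNIP3 has 42 such pseudogenes and PDK1, PDHA1, EGLN1, EGLN3 and HIF1A have 1 each. The gene PGAM4 lies within PGK1 on the other strand. The kit's name does not mark strand and the counting setting is not given in the sources used here, so reads of overlapping genes on opposite strands may not be told apart, as for SLC16A3 with CSNK1D, PFKM with SENP1 and TPI1 with SPSB2.

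Lactate dehydrogenase shifted further towards its B subunit, which already held the larger share of its mRNA per kilobase in both control lines. LDHA (Entrez 3939, chr11:18416107-18429972, plus strand), the subunit known for reducing pyruvate to lactate in glycolytic tissue, was at 1220, 1209 and 1200 CPM in HUWE1-P, 1188, 1286 and 1178 CPM in HUWE1-WT and 971, 1002 and 1018 CPM in HUWE1-CS cells. LDHB (Entrez 3945, chr12:21788276-21910791, minus strand), the subunit of oxidative tissue such as heart, was at 1071, 1038 and 1060 CPM in HUWE1-P, 980, 1162 and 1123 CPM in HUWE1-WT and 1288, 1323 and 1241 CPM in HUWE1-CS cells. LDHA fell below, and LDHB rose above, all 6 control libraries. The log2 fold changes of LDHA were -0.28 (SE 0.0557, FDR 4e-05) and -0.29 (SE 0.0557, FDR 2.42e-05). Those of LDHB were 0.28 (SE 0.0569, FDR 5.05e-05) and 0.24 (SE 0.0569, FDR 0.000693). LDHB has a short transcript of 1303 bases, and with the trend by transcript length removed its change against HUWE1-WT cells went to 0.15 and no longer passed, while LDHA passed under every alternative fit. The summed level of both genes was nearly the same, at 2266 ± 23.0 CPM in HUWE1-P, 2306 ± 140 CPM in HUWE1-WT and 2281 ± 37.7 CPM in HUWE1-CS cells (SD, n = 3). The ratio of LDHB to LDHA counts was 0.873 ± 0.0132 in HUWE1-P, 0.894 ± 0.0646 in HUWE1-WT and 1.29 ± 0.0603 in HUWE1-CS cells, a difference larger than the spread between libraries. This ratio is not set against transcript length, so it does not show which subunit has more mRNA. Per kilobase, LDHB made up 60.0% of both in HUWE1-P, 60.5% in HUWE1-WT and 68.9% in HUWE1-CS cells.

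The upstream DNA of this pair is shown because its genes moved apart. The LDHA window is chr11:18394313-18394562 (plus strand) and the LDHB window chr12:21657843-21658092 (minus strand), both on GRCh38.p14 from RefSeq with the same letters in capitals.
LDHA: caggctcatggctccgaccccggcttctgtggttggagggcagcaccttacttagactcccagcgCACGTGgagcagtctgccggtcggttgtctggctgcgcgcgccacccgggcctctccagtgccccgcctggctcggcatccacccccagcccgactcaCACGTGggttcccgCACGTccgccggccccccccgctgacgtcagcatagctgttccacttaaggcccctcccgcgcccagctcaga
LDHB: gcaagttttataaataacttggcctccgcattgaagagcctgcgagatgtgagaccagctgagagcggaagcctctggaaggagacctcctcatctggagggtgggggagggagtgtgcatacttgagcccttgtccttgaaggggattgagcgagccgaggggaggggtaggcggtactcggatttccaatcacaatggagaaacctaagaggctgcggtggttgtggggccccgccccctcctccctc
The LDHA window held 3 cores, of which 2 lie inside the E-box CACGTG, the letters that MYC and related factors bind, and the LDHB window held 0. LDHA has another RefSeq start site with 1 core upstream. Of the 36 genes 33 had windows, 60 in all. ACGTG was found on either strand in 36.7% of them and in 22.9% of the 13209 windows of all genes in the table, GCGTG in 33.3% and 44.9%, and either of the cores in 56.7% and 56.5%. CACGTG, which contains ACGTG on both strands, was found in 13.3% and 8.49%. Counted by gene, 6 of 8 genes that rose in HUWE1-CS against HUWE1-P cells, 7 of 8 that fell and 13 of 17 that did not pass held a core in at least 1 window. Over the list this was 78.8% of genes, against 66.8% of the genes in the table that had a window, and ACGTG alone was found in 57.6% and 29.8% of genes. Genes of the list had more windows each, and cores were found in genes of both directions.

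**Figure D3:**
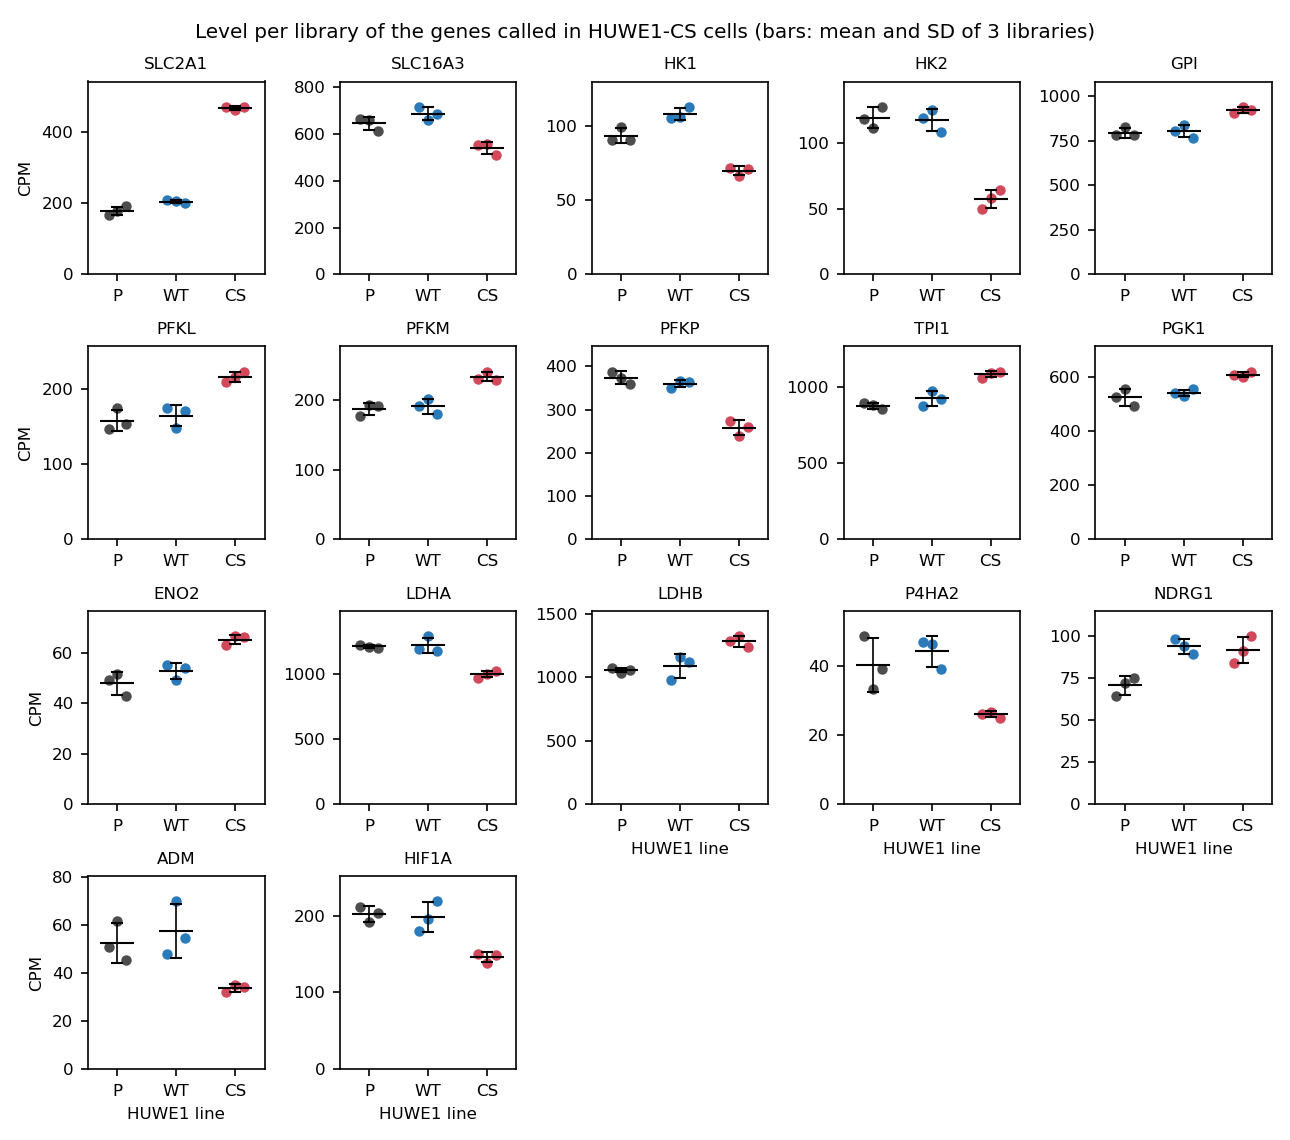
CPM in each library for the 17 genes that passed in HUWE1-CS cells, with the mean and SD of 3 libraries as bars and each axis starting at 0. HUWE1-CS libraries (red) lie apart from both control lines for every gene shown except NDRG1, where HUWE1-WT and HUWE1-CS libraries overlap.

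No gene of pyruvate entry into mitochondria passed. PDHA1 and PDHB, subunits of the pyruvate dehydrogenase complex, and PDK1 and PDK3, kinases that switch it off, had log2 fold changes between -0.03 and 0.11 against HUWE1-P cells, and 0 of the 4 passed in edgeR or had an unadjusted p below 0.05. DESeq2 and limma-voom called none of them. PDK1, a HIF1 target, was at 8.42 to 14.5 CPM in HUWE1-P and 9.64 to 13.7 CPM in HUWE1-CS cells, and its interval against HUWE1-P cells ran from -0.57 to 0.51, so a change within these bounds was not detectable at this depth.

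The oxygen-regulated subunit itself was lower. HIF1A (Entrez 3091, chr14:62162231-62214977, plus strand) was at 212, 192 and 203 CPM in HUWE1-P, 180, 196 and 219 CPM in HUWE1-WT and 150, 139 and 149 CPM in HUWE1-CS cells. All HUWE1-CS libraries lay below the lowest control, with log2 fold changes of -0.47 (SE 0.0819, FDR 2.63e-06) and -0.44 (SE 0.0825, FDR 1.42e-05). Its partner ARNT was at 48.4, 45.5 and 56.4 CPM, then 57.4, 51.8 and 50.0 CPM, then 50.4, 48.2 and 48.8 CPM in the same order, and the groups overlapped (-0.04, FDR 0.876, and -0.11, FDR 0.601). HIF1A protein is controlled mainly by its oxygen-dependent breakdown, which mRNA counts do not show.

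HIF1 targets outside glycolysis were mixed in direction against HUWE1-P cells and mostly lower against HUWE1-WT cells, with median log2 fold changes of 0.02 and -0.08. Against HUWE1-WT cells all but P4HA1 (0.15) lay below 0, several of them only slightly. Of 9 in the table, 3 (33.3%) passed against HUWE1-P cells, 1 higher and 2 lower. Against HUWE1-WT cells 2 (22.2%) passed, both lower. Of all genes, 17.0% and 15.5% passed in these comparisons. P4HA2, a prolyl hydroxylase that modifies collagen, was at 48.4, 33.1 and 39.0 CPM in HUWE1-P, 46.9, 46.4 and 39.0 CPM in HUWE1-WT and 26.1, 26.7 and 25.0 CPM in HUWE1-CS cells, with log2 fold changes of -0.62 (SE 0.167, FDR 0.00257) and -0.77 (SE 0.164, FDR 0.000152). ADM, the vasodilator peptide adrenomedullin, was at 50.9, 61.7 and 45.3 CPM, then 48.1, 69.8 and 54.7 CPM, then 32.0, 35.2 and 34.3 CPM, with log2 fold changes of -0.63 (SE 0.151, FDR 0.000685) and -0.77 (SE 0.149, FDR 2.56e-05). For both genes every HUWE1-CS library was below every control. Against HUWE1-P cells ADM lost its call with DESeq2 and without HUWE1-P replicate 2 (-0.50), and P4HA2 with DESeq2 and without HUWE1-P replicate 1 (-0.48) or HUWE1-CS replicate 3 (-0.59). Their adjusted p reached 0.0211 and 0.0482 over the alternative fits, and both genes passed against HUWE1-WT cells in each of them.

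NDRG1, a stress-induced gene often used as a hypoxia marker, behaved differently from the rest. It was at 64.6, 72.4 and 75.2 CPM in HUWE1-P, 98.5, 94.3 and 89.5 CPM in HUWE1-WT and 84.3, 91.3 and 99.9 CPM in HUWE1-CS cells. Both edited lines were above the parental cells and overlapped each other, and only HUWE1-CS against HUWE1-P passed (log2 fold change 0.37, FDR 0.0065), with 0.41 (FDR 0.157) for HUWE1-WT against HUWE1-P and -0.04 (FDR 0.852) for HUWE1-CS against HUWE1-WT cells. The call of NDRG1 against HUWE1-P cells held in 14 of the 20 alternative fits, over which its adjusted p reached 0.0507. The other 6 did not pass in either comparison. VEGFA, the angiogenic growth factor, had log2 fold changes of 0.02 (95% interval -0.26 to 0.31) and -0.08 (-0.36 to 0.20). The mitophagy receptors BNIP3 and BNIP3L, the oxygen sensor EGLN1 and the collagen hydroxylase P4HA1 lay between -0.06 and 0.16 against HUWE1-P cells. EGLN3, another oxygen sensor, was at only 2.97 to 9.27 CPM over the 9 libraries, and its value of -0.67 against HUWE1-P cells had an interval from -1.48 to 0.13.

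Summed over the 17 enzymes from hexokinase to lactate dehydrogenase, glycolysis held 1.61% of counts in HUWE1-P, 1.64% in HUWE1-WT and 1.65% in HUWE1-CS cells. The TMM-normalized sums were 16063 ± 220 CPM, 16324 ± 480 CPM and 16694 ± 415 CPM (SD, n = 3). HUWE1-CS libraries lay above all HUWE1-P libraries in this sum and overlapped the HUWE1-WT libraries. Of the 17 enzymes 11 (64.7%) passed against HUWE1-P cells, 7 higher and 4 lower. In that comparison 17.0% of all genes passed, and 32.9% of those with at least 100 CPM. Against HUWE1-WT cells 9 (52.9%) passed, 5 higher and 4 lower, beside 15.5% of all genes and 29.4% at that level.

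Other genes of these routes were taken from lists of related pathways, whose counts stand beside the 17.0% of all genes that passed in HUWE1-CS against HUWE1-P cells. Of 11 further genes of glycolysis, sugar entry and lactate export, 2 (18.2%) passed, both lower: SLC16A1 (MCT1), a lactate carrier, with a log2 fold change of -0.24 (FDR 0.00956), and SLC16A7 (MCT2) with -1.40 (FDR 0.00626), the latter from 8.19 to 9.93 CPM down to 1.70 to 6.39 CPM, near the floor in some libraries. Against HUWE1-WT cells SLC16A1 passed with -0.37 (FDR 5.65e-05), and SLC16A7 had -1.36 with an FDR just over the threshold. BSG, the chaperone that carries these transporters to the membrane, had 0.18 (FDR 0.0135), and 0.20 (FDR 0.0088) against HUWE1-WT cells. SLC16A3 fell alongside SLC16A1, and its share of their summed level per kilobase was 80.7% in HUWE1-P, 80.4% in HUWE1-WT and 80.6% in HUWE1-CS cells.

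Of 11 genes of mitochondrial pyruvate use 2 (18.2%) passed, both lower. PC, pyruvate carboxylase, which makes oxaloacetate, fell by 1.44 on the log2 scale (FDR 2.26e-05), from 16.3 to 20.7 CPM in HUWE1-P to 5.34 to 7.94 CPM in HUWE1-CS cells, and by 1.57 (FDR 3.01e-06) against HUWE1-WT cells. The citrate synthase gene (symbol CS) fell by 0.63 (FDR 5.32e-12) and by 0.58 (FDR 2.42e-10). Both enzymes bring carbon from pyruvate into the citric acid cycle, from its carboxylation and from acetyl-CoA.

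Transketolase TKT, of the non-oxidative pentose phosphate pathway that exchanges carbon with glycolysis, had a log2 fold change of 0.19 (FDR 0.0081), and 0.13 (FDR 0.103) against HUWE1-WT cells. Of 9 genes of glycogen metabolism 3 (33.3%) passed, 2 higher and 1 lower, namely the primer GYG1 with 0.75 (FDR 2.32e-06), phosphoglucomutase PGM1 with 0.60 (FDR 5.99e-05) and the phosphorylase PYGL with -0.41 (FDR 3.68e-05). The list of gluconeogenesis held 5 genes, without PC, which was lower and is counted above with mitochondrial pyruvate use. Only 2 of the 5 were in the table, both higher. They were the mitochondrial PCK2, which makes phosphoenolpyruvate, with 1.01 (FDR 1.07e-06) and the glucose 6-phosphatase G6PC3 with 0.86 (FDR 4.42e-10). These genes of glycogen metabolism and gluconeogenesis kept their call and direction with HUWE1-WT cells as the control.

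Among 12 regulators of HIF 1 was higher and 1 lower, which is 16.7% beside 17.0% of all genes. ELOB, elongin B of the ubiquitin ligase that removes HIF1A, rose by a log2 fold change of 0.68 (FDR 2.02e-10) against HUWE1-P and 0.79 (FDR 1.59e-12) against HUWE1-WT cells. The coactivator CREBBP had -0.40 (FDR 0.00234) and -0.26 (FDR 0.0708). Of 27 further HIF targets 3 passed in HUWE1-CS against HUWE1-P cells, all lower, which were the lysyl oxidase LOXL2 with -1.51 (FDR 2.41e-08), the transferrin receptor TFRC with -0.32 (FDR 4.88e-05) and INSIG2, a brake on sterol synthesis, with -0.90 (FDR 0.0072). Against HUWE1-WT cells LOXL2 passed with -1.69 (FDR 4.04e-10), whereas INSIG2 had -0.85 (FDR 0.0139) and TFRC -0.07 (FDR 0.482), and TFRC had -0.25 (FDR 0.107) in HUWE1-WT against HUWE1-P cells. The 3 of 27 are 11.1%, beside 17.0% of all genes, and 2 of the 27 passed against HUWE1-WT cells. The median log2 fold change of these 27 was -0.16 beside -0.01 over all genes.

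**Figure D4:**
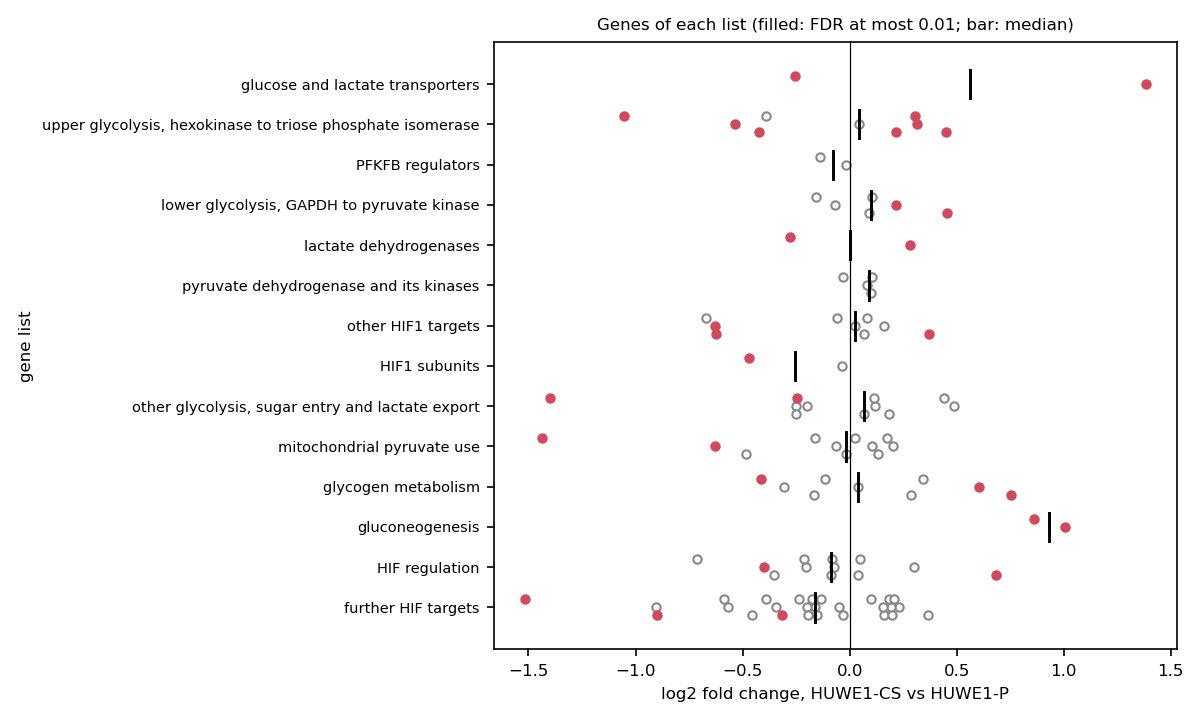
Log2 fold change in HUWE1-CS against HUWE1-P cells of each gene (points, filled where FDR was at most 0.01) by list, with a bar at the list's median. The medians lie between -0.08 and 0.10 except for SLC2A1 with SLC16A3 at 0.56, PCK2 with G6PC3 (gluconeogenesis) at 0.93, HIF1A with ARNT at -0.25 and the 27 further HIF targets at -0.16.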

How the data were processed

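The authors purified polyadenylated RNA, removed adapters from single-end reads (Skewer), aligned to hg19 (STAR 2.5.4; the submitters' processing notes also name bcl2fastq 2.20 and edgeR 3.26.8) and deposited raw counts per gene. The counting tool, annotation, strand setting and low-count filter are not given in the sources used here. The authors' tables of fold changes, p-values and FDR were not used.

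Counts were TMM-normalized and tested with edgeR 4.0.16 (R 4.3.3, glmQLFit with legacy = TRUE, glmQLFTest) over all 11350 genes and 9 libraries with line as the only term and Benjamini-Hochberg adjustment. Intervals are 95% from the fit. Positions, transcript lengths and pseudogenes came from GENCODE on GRCh37, and upstream sequences from RefSeq on GRCh38.p14. The tests were checked on simulated data. Every listed gene in the table is named, with each library's value where it passed, and of other lists up to 3 genes per direction with the smallest p-values in HUWE1-CS against HUWE1-P cells. One result under this rule is not reported here. BSG falls outside this rule and was named after its value was seen. The members and lists were chosen with earlier results of these data known. Alternatives were DESeq2 1.42.0, limma-voom (limma 3.58.1), other estimators, scalings, filters, samples, limits, a replicate block and trend corrections.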

Additional observations from a re-analysis of the deposited data

How the results depend on the processing

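No listed gene that passed in the main fit or an alternative differed in sign between that alternative and the main fit. With DESeq2 1088, 998 and 0 genes passed in HUWE1-CS against HUWE1-P, HUWE1-CS against HUWE1-WT and HUWE1-WT against HUWE1-P cells (1934, 1759 and 7 in edgeR), and of the listed genes 12, 13 and 0, with ADM, ENO2, HK1, NDRG1 and P4HA2 lost in the first and PFKM in the second. The cause was not tested. An FDR limit of 0.05 gave 2999, 2774 and 13 genes. A further limit of 0.5 on the absolute log2 fold change gave 1151, 1064 and 4 genes and left 5 listed genes in each HUWE1-CS comparison. HUWE1-WT against HUWE1-P cells gave 1 gene in a robust fit and 4 with at least 10 counts in every library. Leaving out single libraries gave 1466 to 2018, 1373 to 1766 and 1 to 19 genes in these comparisons, and 11 to 17, 11 to 14 and 0 listed genes, the lowest of them without HUWE1-P replicate 1 and without HUWE1-WT replicate 1. Without HUWE1-CS replicate 2 there were 14 and 13. With the trend by transcript length removed 19 and 14 listed genes passed, ENO1 and PGAM1 added in the first, and LDHB and TPI1 lost and PGAM1 and PGK1 added in the second.

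Replicate numbers showed no strong pairing of the libraries. Deviations of same-numbered libraries correlated between -0.0195 and 0.0579, and those of differently numbered libraries between -0.065 and 0.033. Whether a weak pairing exists was not tested. With the replicate number as a block in the fit, 2021, 1835 and 7 genes and 17, 14 and 0 listed genes passed, and no call of a listed gene changed. Depth limits the low genes: for EGLN3 and PDK1 the intervals given are wide and do not settle whether these genes changed. The floor of 3 counts covers counting error only.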
